A study of Zea mays with 38 samples.

Results

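Glutathione S-transferases (GSTs) were represented by 20 array features of 15 genes among the 20072 features measured in leaves of maize seedlings under UV-B. A feature is a spotted cDNA, named by the identifier of its expressed sequence tag. The members were all features whose gene has a symbol or synonym made of "gst" and a number. The platform table lists these genes under locus numbers, and the gst names were read from the RefSeq gene table through the gene identifiers. The gene gst1 had 4 features, gst41 had 3, and gst2, gst6, gst10, gst11, gst12, gst13, gst16, gst17, gst18, gst28, gst30, gst31 and gst39 had 1 each. All 20 could be tested.

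GSTs join the tripeptide glutathione to reactive, electrophilic compounds, and some also reduce organic peroxides. In plants the conjugates are moved into the vacuole by transporters of the multidrug resistance protein type. Maize GSTs are best known for detoxifying herbicides, and gst2, which carries the synonym GSTIV, encodes an enzyme induced by herbicide safeners. The Bronze2 protein of maize is a GST needed to place anthocyanin pigments in the vacuole.

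The plants were of the inbred line B73, and no other genotype was used. Seedling leaves were irradiated with UV-B for 1, 2, 4, 8 or 12 h, and an untreated control group was taken at each time so that UV responses could be told from changes over the day. Each of 19 slides carried the total RNA of 1 UV group and 1 control group of the same time, in 38 samples of 10 groups, with 4 slides (a to d) per time and 3 (a, c and d) at 2 h. On slides a and b the UV sample carried the dye Cy5, and on slides c and d it carried Cy3. The plants were treated in groups of roughly 20. Nothing says that slides of the same time are separate groups of plants, so the p-values measure a spread that may be technical.

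Between 18795 and 20158 spots were read per channel, and channel medians of intensity ran from 138059 to 626914. The brightest of 7 foreign sequences on the slides had a mean log2 intensity of 16.76. Above it lay 14510 of the 20010 tested features and 15 of the 20 GST features. So did 11 of 14 features on a list of leaf genes such as rbcS and rca1. On a list of seed genes, some of which also act outside the seed, 7 of 9 features did. The leaf list, matched by symbol, also took in PDK1 (BQ295564), which is a different gene from the leaf gene pdk1. The GST features below the brightest foreign sequence were gst13, gst16, gst18 and the gst41 features AI738277 and AI770339, so their signal was not told apart from unspecific binding. Whole leaves were sampled, so fewer cells of a type and less RNA per cell cannot be told apart. A cDNA spot can also bind transcripts of close relatives, which was not tested for these genes.

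GST features passed the test for a change under UV-B only in the mean over times. At each of the 5 times, 0 of 20 GST features passed an adjusted p of 0.05 in limma's moderated test with Benjamini-Hochberg adjustment over all 20010 features. Averaged over the times, 3 of 20 GST features passed, beside 14.4% of all features. All 3 were higher under UV: gst1 (BQ486769), gst17 and gst39, by 1.13- to 1.18-fold. All changes below are log2(UV/control) ± SE from that fit, with n the number of slides, and each SE pools the scatter of a feature over all times.

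At each single time the share of GST features with an adjusted p under 0.05 was equal to that of all features or below it. The share of all features called was 0.0% at 1 h, 4.14% at 2 h, 0.0% at 4 h, 7.54% at 8 h and 4.34% at 12 h. Among members the smallest adjusted p was 0.543, 0.0579, 0.494, 0.0907 and 0.114. At an unadjusted p under 0.05, 3, 5, 2, 6 and 3 of the 20 GST features stood at these times. Of all features 7.82%, 20.2%, 4.84%, 23.4% and 19.0% did, so the family's share was the higher one at 1, 2, 4 and 8 h and the lower one at 12 h. Whether these shares differ was not tested. For the mean over times 14.4% of all features were called, 8.72% as higher in UV. At an unadjusted p under 0.05, 35.0% of the GST features and 28.4% of all features stood in that comparison.

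At 4 of the 5 times more GST features lay above 0 than below it. At 1 h, 14 features were higher and 6 lower under UV, with a median change of 0.15 beside 0.00 for all features. The split was 13 to 7 at 2 h, 10 to 10 at 4 h, 11 to 9 at 8 h and 13 to 7 at 12 h, where the median was 0.02. For the mean over times it was 14 to 6, while 45.8% of all features were higher. The 95% interval of the mean change lay within 1.5-fold either way for 18 of the 20 features, and for 13 it held 0. The 2 features with wider intervals were gst12 and gst18. The plot of mean changes shows these intervals.

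**Figure D1:**
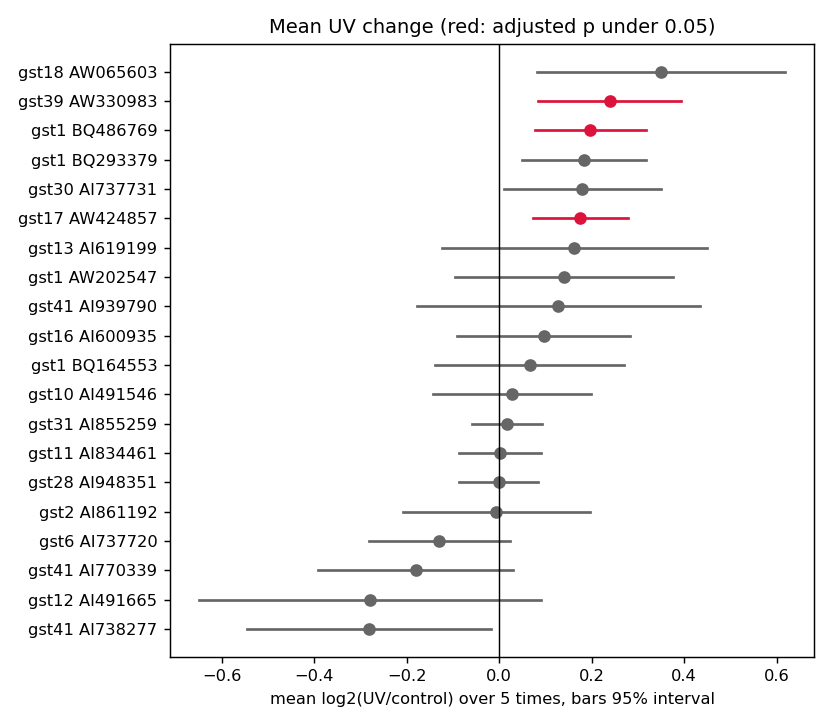
Mean log2(UV/control) over the 5 times for each GST feature (points) with its 95% interval (bars), with features ordered by their change. Red marks the features with an adjusted p under 0.05, which are gst1 BQ486769, gst17 and gst39, and all of them lie above 0.

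The called feature of gst1, BQ486769, was the brightest GST feature, with a mean log2 intensity of 21.28. Its log2(UV/control) on slides a to d was 0.46, 0.82, -0.04 and 0.20 at 1 h and 0.55, 0.14 and 0.43 on slides a, c and d at 2 h. It was 0.18, -0.05, -0.08 and -0.04 at 4 h, 0.67, -0.02, 0.30 and -0.15 at 8 h, and 0.29, 0.10, 0.04 and -0.42 at 12 h. The feature was thus above 0 on every slide of 2 h and on 3 of 4 at 1 h, and it spread around 0 at 4 and 12 h. The mean over times was 0.20 ± 0.06 (n = 19, adjusted p = 0.0288, higher on 12 of 19 slides), a 1.15-fold difference. The change at 2 h was 0.43 ± 0.14 (adjusted p = 0.0977).

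The other gst1 features stood on the same side of 0 in the mean without passing. BQ293379 had a mean of 0.18 ± 0.06 (n = 17, adjusted p = 0.0660), AW202547 one of 0.14 ± 0.11 (n = 18, adjusted p = 0.437) and BQ164553 one of 0.07 ± 0.10 (n = 19, adjusted p = 0.699). The last 2 had slides with weak signal. BQ164553 stood at -1.30 on slide b of 8 h, with log2 intensities of 14.70 (UV) and 16.00 (control). Its channels on the other slides of 8 h had 19.78 to 20.51. AW202547 stood at -0.92 and 1.23 on slides b and d of 4 h, with log2 intensities between 13.22 and 16.41. At 1 h all gst1 features lay between 0.23 and 0.38, and at 2 h between 0.27 and 0.43. At 12 h they lay between -0.14 and 0.02. Whether the response differed between times was tested for each feature, and for gst1 the adjusted p ran from 0.377 to 0.954, so the early values are not shown to differ from the late ones.

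gst17 (AW424857) was near the level of the brightest foreign sequence, at a mean log2 intensity of 16.89. Its values were 0.28, 0.25 and 0.36 on slides a, b and d at 1 h, with slide c not measured, and 0.57, 0.54 and 0.04 on slides a, c and d at 2 h. They were 0.39, -0.13, -0.14 and 0.03 at 4 h, 0.33, 0.51, 0.06 and 0.11 at 8 h, and 0.05, 0.00, -0.11 and -0.31 at 12 h. All slides of 1, 2 and 8 h were above 0, and those of 4 and 12 h lay on both sides. The mean over times was 0.18 ± 0.05 (n = 18, adjusted p = 0.0253, higher on 14 slides), a 1.13-fold difference. At 2 h it was 0.42 ± 0.12 (adjusted p = 0.0579), the smallest adjusted p of any member at a single time.

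gst39 (AW330983) was higher under UV on every slide of 2, 8 and 12 h. Its values were 0.16, 0.40, 0.10 and -0.22 at 1 h, 0.25, 0.07 and 0.38 at 2 h, and -0.42, 0.52, 0.30 and -0.70 at 4 h. They were 0.40, 0.43, 0.57 and 0.36 at 8 h and 0.56, 0.31, 0.72 and 0.29 at 12 h. The slides of 4 h covered the widest range, on both sides of 0. The mean over times was 0.24 ± 0.07 (n = 19, adjusted p = 0.0379, higher on 16 slides), a 1.18-fold difference. At 8 h the change was 0.44 ± 0.16 (adjusted p = 0.0981), and at 12 h it was 0.47 ± 0.16 (adjusted p = 0.114).

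None of these 3 calls held in all settings. With any 1 of 19 slides left out in turn, the call of gst17 was lost in 3 cases, that of gst1 BQ486769 in 6 and that of gst39 in 13, with adjusted p up to 0.0632, 0.0634 and 0.0771. The direction was higher under UV in every such case. Other settings removed the call of gst17 in 6 of 12 cases, that of gst1 BQ486769 in 6 of 13 and that of gst39 in 2 of 13. With the authors' deposited matrix values the means were 0.0496 for gst17 (adjusted p = 0.145) and 0.126 for gst1 BQ486769 (adjusted p = 0.128). The scale of these values is not stated, so their size cannot be set against the log2 ratios. For gst39 the mean was 0.221 (adjusted p = 0.0883) with log ratios scaled between slides. With UV and control channels taken as unpaired samples the adjusted p was 1.0, 1.0 and 0.276.

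gst18 (AW065603) had the highest mean change of the family and did not pass. Its values were -0.08, 0.47, 0.09 and 0.22 at 1 h, -0.05, 0.61 and 0.08 at 2 h, and -0.99, 0.19, 0.68 and 1.04 at 4 h. They were 1.43, -0.03, 1.36 and 0.38 at 8 h and 0.64, 0.74, 0.12 and 0.03 at 12 h. It was above 0 on all slides of 12 h and spread most widely at 4 and 8 h. The mean was 0.35 ± 0.13 (n = 19, adjusted p = 0.0765, higher on 15 slides), and the change at 8 h was 0.78 ± 0.27 (adjusted p = 0.0907). Without slide a of 4 h the mean was 0.44 with an adjusted p of 0.0136, and without slide b of 8 h it was 0.41 with an adjusted p of 0.0456. Its mean log2 intensity of 15.34 lay below the brightest foreign sequence.

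**Figure D2:**
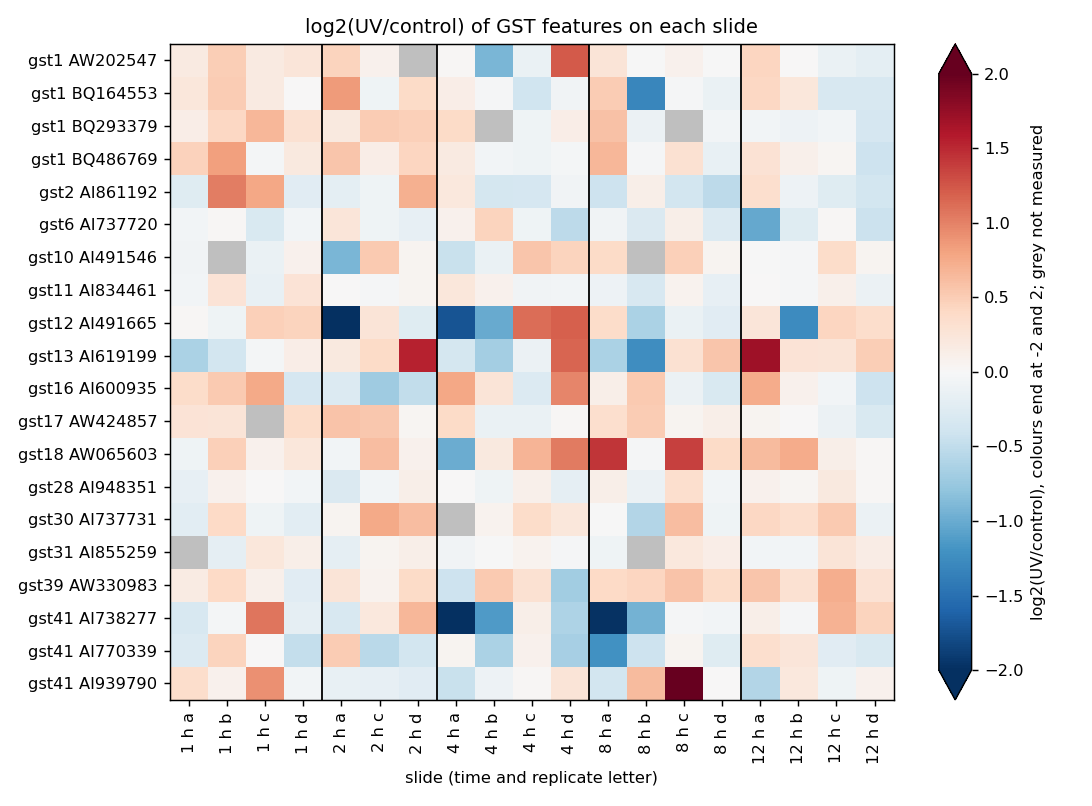
Heat map of log2(UV/control) of the 20 GST features (rows) on the 19 slides (columns, ordered by time and replicate letter), with red for higher and blue for lower under UV and grey where a feature was not measured. gst39 is red on all slides of 8 and 12 h, while the deepest colours, such as -2.82 for gst41 AI738277 at 4 h and -3.23 for gst12 at 2 h, stand on single slides.

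The gene gst41 had the lowest changes of the family at 4 and 8 h, in 1 of its 3 features. AI738277 stood at -1.11 ± 0.27 at 4 h (n = 4, adjusted p = 0.494) and at -0.75 ± 0.27 at 8 h (n = 4, adjusted p = 0.0971). At these times AI770339 stood at -0.29 ± 0.21 and -0.46 ± 0.21, and AI939790 at -0.07 ± 0.31 and 0.73 ± 0.31. None of these passed the test.

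AI738277 had values of -0.32, -0.04, 1.07 and -0.18 on slides a to d at 1 h and of -0.32, 0.21 and 0.66 on slides a, c and d at 2 h. At 4 h they were -2.82, -1.13, 0.12 and -0.61, at 8 h -1.98, -0.95, -0.03 and -0.05, and at 12 h 0.12, -0.03, 0.69 and 0.45. The low values at 4 and 8 h sat mainly on slides a and b, where UV was labelled with Cy5, and slides c and d stayed between -0.61 and 0.12. The dye term of this feature was -0.51 (unadjusted p = 0.000769). The mean over times, -0.28 ± 0.12 (n = 19, adjusted p = 0.146, lower on 12 slides), was the lowest of the family.

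The spots printed around AI738277 followed the same course. The median log2(UV/control) of the 24 spots at most 2 rows and 2 columns away in the same print block was -2.48, -1.03, 0.15 and -0.17 on slides a to d at 4 h and -1.87, -1.31, -0.11 and 0.15 at 8 h. The gst41 spot and the median of these neighbours, which hold other cDNAs, had a Pearson r of 0.952 over 19 slides. The means of the surrounding spots were -0.88 at 4 h and -0.79 at 8 h, beside -1.11 and -0.75 for the gst41 spot. After the median of the surrounding spots was subtracted from every spot on every slide and the fit was repeated, AI738277 stood at -0.23 ± 0.13 at 4 h (adjusted p = 1.00), 0.03 ± 0.13 at 8 h (adjusted p = 0.920) and -0.01 ± 0.06 in the mean over times (adjusted p = 0.954). This alternative was chosen after the data had been seen.

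AI770339 behaved in a like manner at a smaller scale. Its values were -0.27, 0.45, 0.01 and -0.47 at 1 h, 0.51, -0.54 and -0.37 at 2 h, and 0.05, -0.63, 0.09 and -0.67 at 4 h. At 8 h they were -1.21, -0.42, 0.06 and -0.25, and at 12 h 0.33, 0.24, -0.23 and -0.30. Slide a of 8 h was the lowest and the other slides crossed 0 at every time. The r with the surrounding spots was 0.794, and with their median subtracted the change was -0.08 ± 0.15 at 8 h and -0.01 ± 0.07 in the mean, from -0.18 ± 0.10 (n = 19, adjusted p = 0.250) without it.

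The third gst41 feature, AI939790, was lifted by 1 slide. Its values were 0.35, 0.09, 0.91 and -0.06 at 1 h, -0.15, -0.17 and -0.22 at 2 h, and -0.45, -0.10, 0.02 and 0.25 at 4 h. At 8 h they were -0.37, 0.64, 2.68 and 0.00, and at 12 h -0.59, 0.21, -0.08 and 0.09. Only slide c of 8 h exceeded 1, and the other slides of that time lay between -0.37 and 0.64. On slide c the log2 intensity was 13.53 in the control channel and 16.21 in the UV channel. The other slides of 8 h had 16.23 to 17.29 in control channels and 16.87 to 17.19 in UV channels. Here the surrounding spots did not run along (r = 0.255), and the change at 8 h with their median subtracted was 0.75 ± 0.31 (adjusted p = 0.151). The mean over times was 0.13 ± 0.14 (n = 19, adjusted p = 0.603).

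**Figure D3:**
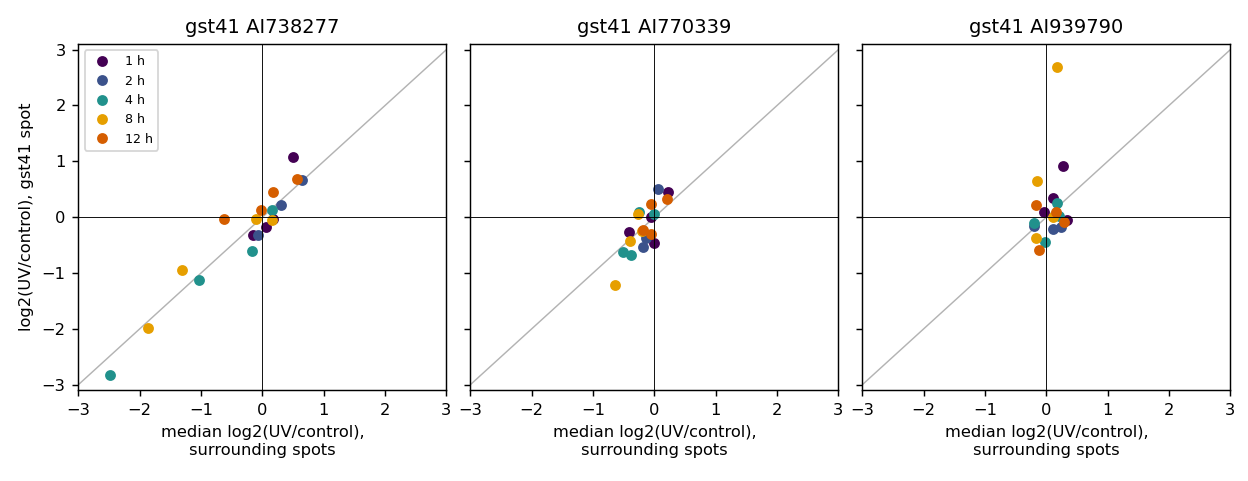
log2(UV/control) of each gst41 feature (vertical axis) against the median log2(UV/control) of the spots around it in its print block (horizontal axis), 1 point per slide coloured by time, with the grey line marking equality. The points of AI738277 lie along the line down to -2.82, while the highest point of AI939790, 2.68 at 8 h, stands above surrounding spots near 0.

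The features most like AI738277 were its neighbours on the slide as well. Among 1172 features of other informatively named genes, the highest Pearson r over 19 slides was 0.919 with sbip2a (AI737990), which was printed in the same row of the same block 4 columns away. The next was 0.877 with the HMG I/Y-2 feature AI770331, 1 row and 4 columns away in that block, and the third was 0.785 with pdi6 (AW146599), a protein disulfide isomerase, in another block. AI770339 was most like TCTP (r = 0.708, 17 slides), MPAO (0.707, 18 slides) and por (0.690, 18 slides). AI939790 was most like GP (0.903, 19 slides), nfa104 (0.75, 16 slides) and Agp2 (0.713, 18 slides). These features were all in other print blocks. The lists for the 3 gst41 features held no gene in common.

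gst12 and gst13, which also had large values at single times, had surroundings that moved with them. Those of gst18, the highest member at 8 h, did not run along (r = 0.21). gst12 (AI491665) had the lowest change at 2 h, -1.29 ± 0.44 (n = 3, adjusted p = 0.102), with -3.23 on slide a, 0.25 on slide c and -0.25 on slide d. On slide a the surrounding spots had a median of -1.80. Over all slides the r of gst12 with its surroundings was 0.916, and with their median subtracted the change at 2 h was -0.58 ± 0.28 (adjusted p = 0.257).

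gst13 (AI619199) had the highest changes at 2 and 12 h, 0.61 ± 0.34 (adjusted p = 0.344) and 0.68 ± 0.29 (adjusted p = 0.217). Slide d of 2 h at 1.54 and slide a of 12 h at 1.70 were the high ones, and the spots around it stood at 0.64 and 0.98 there (r = 0.890 over 19 slides). With the surroundings subtracted, gst13 stood at 0.44 ± 0.20 and 0.33 ± 0.17. Subtracted or not, neither change passed the test.

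In all, 6 of the 20 features had an r above 0.75 with the surrounding spots, the other 2 being gst1 BQ164553 (0.774) and gst10 (0.762). The median over the 20 features was 0.319. The features called in the mean were not among these, with 0.01 for gst1 BQ486769, 0.35 for gst17 and -0.22 for gst39. With the surrounding median subtracted, gst17 stood at 0.26 ± 0.06 (adjusted p = 0.0118) and gst39 at 0.24 ± 0.07 (adjusted p = 0.0390) in the mean, while gst1 BQ486769 stood at 0.18 ± 0.09 (adjusted p = 0.187). In that fit single times also passed, for gst1 BQ293379 (0.72 ± 0.17, adjusted p = 0.0332) and gst17 (0.56 ± 0.15, adjusted p = 0.0469) at 2 h, gst18 at 8 h (0.89 ± 0.25, adjusted p = 0.0425) and gst39 at 12 h (0.61 ± 0.16, adjusted p = 0.0364). The surrounding spots of these features, in the same order, had means of -0.26, -0.18, -0.11 and -0.15 at these times, so subtraction raised each change. For gst1 BQ293379 the r with the surroundings was only 0.13, and this fit was chosen after the data had been seen. The share of all features called in that fit was 4.57% at 2 h, 7.94% at 8 h, 4.78% at 12 h and 14.8% in the mean.

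In the fit without that subtraction, none of the remaining members passed the test, and their mean changes ran from -0.13 to 0.18. gst28, gst11 and gst31 were measured most precisely, with mean changes of 0.00 ± 0.04, 0.00 ± 0.04 and 0.02 ± 0.04, and their 95% intervals lay between -0.09 and 0.09. gst2, the gene with the synonym GSTIV, had a mean of -0.01 ± 0.10 (n = 19, adjusted p = 0.974), with an interval from -0.21 to 0.20. gst6 stood at -0.13 ± 0.07 (n = 19, adjusted p = 0.254) and had the lowest change of the family at 12 h, -0.42 ± 0.15 (adjusted p = 0.153). That change leaned on slide a, at -1.03, while slides b to d stood at -0.24, 0.02 and -0.43. The log2 intensity of gst6 at 12 h ran from 14.35 to 19.61 in control channels and from 13.32 to 19.62 in UV channels. The means of gst10, gst16 and gst30 were 0.03 ± 0.08, 0.10 ± 0.09 and 0.18 ± 0.08, with adjusted p of 0.856, 0.508 and 0.151.

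Dim features carried more of the scatter than bright ones. Over the single times, the 5 features below the brightest foreign sequence had a median absolute change of 0.25 with a median SE of 0.27, and the 15 above it had a median of 0.11 with a median SE of 0.16. The largest single changes in these groups were 1.11 and 1.29 in size, both lower under UV. They belonged to gst41 AI738277 and gst12, whose surroundings moved with them.

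Features of one gene were compared with features of different genes as a measure of how well the family agreed. Over slides, the 6 pairs of gst1 features had a median Pearson r of 0.435, from 0.301 to 0.668. The 3 pairs of gst41 features had a median of 0.231, from 0.131 to 0.303. The 181 pairs of different GST genes had a median of 0.066 and ran from -0.686 to 0.840. Features share slides, so these values describe the slides measured and are not independent of each other.

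After time and dye were removed from every feature, these medians were 0.447 for gst1, 0.422 for gst41 and 0.089 for different genes. After the surrounding spots were subtracted, the medians were 0.306, 0.323 and 0.038. The gst1 features were printed in different blocks, and the surroundings of the 6 gst1 pairs had a median r of 0.030. Of the pairs of different genes, 5 of 181 had the same sign of change at all 5 times, as did 1 of 6 gst1 pairs and 0 of 3 gst41 pairs.

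**Figure D4:**
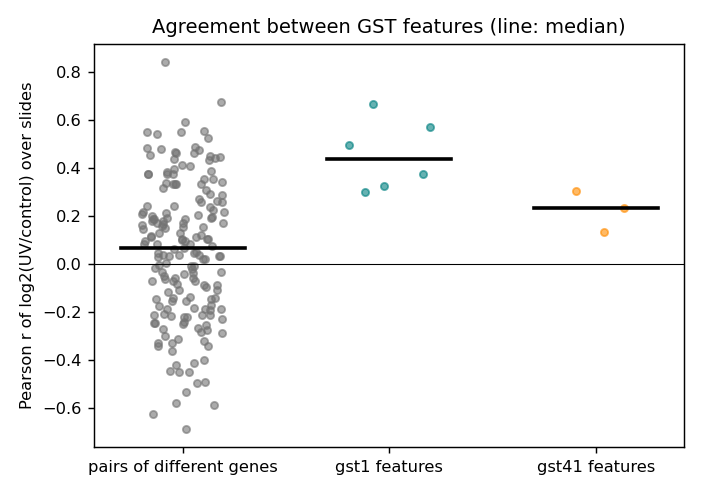
Pearson r of log2(UV/control) over slides for each pair of GST features (points), with pairs of different genes, pairs of gst1 features and pairs of gst41 features shown apart, and the black line marking the median. All pairs of gst1 features lie between 0.301 and 0.668, and pairs of different genes lie on both sides of 0 with a median of 0.066.

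The highest r of the family joined gst10 and gst12, at 0.840 over 17 slides. These genes lie close together on the chromosome, with gst11 directly beside gst12 and 1 annotated gene between gst12 and gst10. Their spots lay in different print blocks, in the same row and 1 column apart within the block, and their surroundings had an r of 0.888. With the surroundings subtracted, the r of gst10 and gst12 was 0.144. The neighbours gst11 and gst12 had an r of -0.143, and gst30 and gst39, also with 1 annotated gene between them, one of 0.189 over 18 slides.

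The level of the transcripts without UV was compared over time in the control samples, in limma's separate-channel fit of the 14226 features measured on all slides. A log2 level is the mean log2 intensity of a channel in arbitrary units and was compared only within a feature. Of the 14 GST features in that fit, 1 differed between times, gst41 AI770339 (adjusted p = 0.0470), while 14.1% of all features did. At an unadjusted p under 0.05 there were 4 of 14 GST features and 32.0% of all features. The control level of AI770339 was 17.85 ± 1.60 (SD, n = 4) at 1 h, 17.28 ± 3.03 (n = 3) at 2 h, 14.74 ± 0.80 at 4 h, 15.18 ± 0.84 at 8 h and 15.01 ± 1.47 at 12 h (n = 4 each). UV samples had 17.78 ± 1.88, 17.15 ± 3.57, 14.45 ± 0.51, 14.72 ± 0.44 and 15.02 ± 1.69.

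The first 2 times were high on some slides and not on others. The control level at 1 h was 15.63, 19.08, 18.94 and 17.75 on slides a to d, and at 2 h it was 20.71, 16.18 and 14.95 on slides a, c and d. At 4 and 8 h it lay between 13.61 and 16.04, below the brightest foreign sequence. The 2 channels of a slide were high or low together. The call was lost when any of 11 slides was left out, as listed in the closing section, and it was absent in the fit of control channels as unpaired samples.

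No other GST feature in that fit passed. gst39 ran from 19.57 ± 0.14 at 1 h to 18.70 ± 0.14 at 12 h (n = 4 each, unadjusted p = 0.0295, adjusted p = 0.116), and gst28 stayed between 19.00 and 19.36 (adjusted p = 0.455). gst1 BQ486769 stayed between 20.96 and 21.47 (adjusted p = 0.578). Other gst1 features varied between slides: AW202547 had a control level of 16.35 ± 2.79 at 4 h, with 20.43, 14.14, 15.66 and 15.18 on slides a to d, beside 19.68 to 20.17 at the other times. UV and control fell together on these slides, at 20.46, 13.22, 15.52 and 16.41 for UV.

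**Figure D5:**
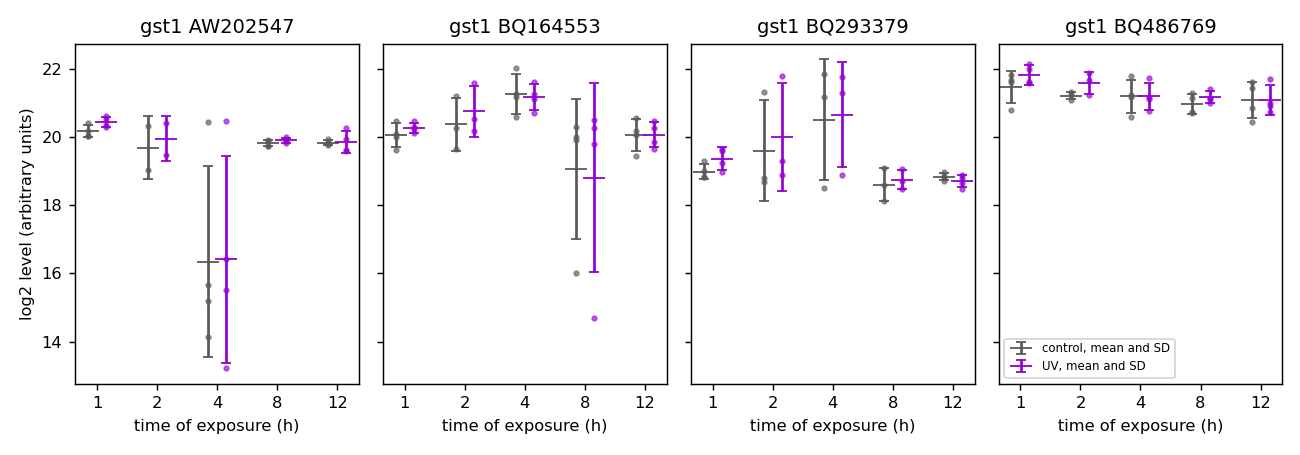
log2 level of the 4 gst1 features in control (grey) and UV (violet) samples at each time, with points for single slides, dashes for means and bars for SD. BQ486769 stays between means of 20.96 and 21.82, while AW202547 falls to 16.35 in controls and 16.41 in UV samples at 4 h, with slides as far apart as 14.14 and 20.43 in controls.

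The moderated F-test of whether the UV response differed between times called 0 of 20 GST features and 0.155% of all features. At an unadjusted p under 0.05 it held 1 GST feature, or 5.0% of them, and 15.2% of all features. That member was gst41 AI738277, which had the smallest adjusted p of the family (0.157).

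Genes that supply glutathione or act beside GSTs were counted from lists matched by symbol. Of the genes for glutathione synthesis and related redox steps, 3 features were present and 0 passed in any comparison with the control. Only 1 of the 3 lay above the brightest foreign sequence, so the signal of the others was not told apart from unspecific binding. In the mean over times 14.4% of all features were called. gsh1, which encodes the first enzyme of glutathione synthesis, stood at -0.10 ± 0.08 in the mean (n = 18, adjusted p = 0.471), and gsh2, the second enzyme, at -0.11 ± 0.06 (n = 19, adjusted p = 0.226). glx1, a glyoxalase that uses glutathione to remove methylglyoxal, stood at -0.17 ± 0.18 (n = 18, adjusted p = 0.580). A list for oxygenation before conjugation matched only a pyruvate phosphate dikinase gene through one of its synonyms and so held no member of its kind.

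Some transporters of the type that carries conjugates passed at single times. Of 8 features of flavonoid genes and multidrug resistance proteins, 2 were called higher and 1 lower in the mean over times, beside 14.4% of all features called. Of these 8, 5 lay above the brightest foreign sequence. MRP1 (AW054137) was higher on 17 of 19 slides, from -0.46 to 1.12, with a mean of 0.46 ± 0.08 (adjusted p = 0.00159), and passed at 8 h (0.72 ± 0.18, adjusted p = 0.0236) and 12 h (0.82 ± 0.18, adjusted p = 0.0170). MRP4 (AI668454), also known as lpa1 for its role in seed phytic acid, was higher on 15 of 19 slides, with a mean of 0.35 ± 0.08 (adjusted p = 0.00978), and passed at 12 h (0.66 ± 0.18, adjusted p = 0.0488).

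MRP2 went the other way in part. Its feature BE186228 was higher on only 3 of 19 slides, with a mean of -0.34 ± 0.07 (adjusted p = 0.00632), and BQ164482 fell at 12 h (-0.35 ± 0.08, adjusted p = 0.0183). The third MRP2 feature stood at 0.09 ± 0.09 in the mean (adjusted p = 0.534). f3h and a2, enzymes of flavonoid and anthocyanin synthesis, stood at 0.11 ± 0.11 and -0.19 ± 0.20, and PAL1, which opens the phenylpropanoid pathway, at -0.03 ± 0.04. These did not pass.

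Of 19 features of other antioxidant genes, 6 were called higher and 1 lower in the mean. Above the brightest foreign sequence lay 15 of the 19. The numbers called at 2, 8 and 12 h were 3 higher, 5 higher, and 3 higher with 1 lower, beside 0 GST features at each of these times. Of all features, 4.14%, 7.54% and 4.34% were called at these times and 14.4% in the mean. The largest mean change on this list was that of the CAT3 catalase feature AI999974, at 1.10 ± 0.12 (n = 19, adjusted p = 0.000143, higher on 15 slides). The peroxidase PER42 followed at 0.73 ± 0.08 (adjusted p = 0.000143, higher on 16 slides). The other CAT3 feature, AI491472, stood at -0.16 ± 0.07 (n = 18, adjusted p = 0.172, higher on 9 slides and lower on 9). The feature called lower was Cat0 (AI964439), at -0.34 ± 0.06 (n = 19, adjusted p = 0.00278, lower on 16 slides). Whether GSTs differ from these genes as a group was not tested.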

How the data were processed

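RNA of UV and control leaves was hybridised in pairs to cDNA slides. The deposited intensity of each spot and channel was read from scans gridded with TIGR Spotfinder, per the labels. The authors' processed series matrix, a score of unstated scale, served as an alternative. Whether a local background had been subtracted is not known.

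Intensities were corrected with normexp (offset 50) and normalized by loess (span 0.3) within each slide in limma 3.58.1 (R 4.3.3). Of 20231 spots, 124 specially named ones were left out, and the spots of a feature were averaged. Features with values on at least 2 slides of every time were tested. Of 1334 named probes, 1331 had 1 symbol, 3 had several, and 1283 matched the RefSeq gene table. One model held 5 time means and a dye term (13 residual and 2.75 prior degrees of freedom), and UV and control were paired by slide because they share its spots. Control levels used the separate-channel fit after Aquantile normalization (intraspot correlation 0.787). P-values were adjusted (Benjamini-Hochberg) over all features tested, and 0.05 was the threshold.

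The scripts were tested on simulated data. The members and lists were chosen with earlier results of these data known. Named were all gst41 features, members called in any comparison, those with the highest and lowest mean change, most of the extremes at single times, and the 3 features most like each gst41 feature (at least 15 shared slides). Lists gave the 2 largest passing mean changes. MRP2, the unchanged list genes and the other members were named after their values were seen. Alternatives covered background, normalization, filters, dye, weights, pairing and leaving out slides. Sequences are not used here.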

Additional observations from a re-analysis of the deposited data

Results flagged for a closer look

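Dixon's test of the slides of 1 feature at 1 time (groups of 4 slides) found a far slide in 4 of 72 groups, and chance alone gives about 1 in 20. For gst1 BQ293379 at 12 h, slide d stood at -0.33 and the others between -0.10 and -0.06, with 0.22 in the spots around it on that slide. For gst1 BQ486769 at 4 h, slide a stood at 0.18 and the others between -0.08 and -0.04, with -1.36 in the spots around it. For gst12 at 12 h, slide b stood at -1.26 and the others between 0.24 and 0.43, with -0.32 in the spots around it. For gst13 at 12 h, slide a stood at 1.70 and the others between 0.25 and 0.49, with 0.98 in the spots around it. The part of the surrounding spots in these values was not tested.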

How the results depend on the processing

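The count of GST features called was 0 in every setting at 1 and 4 h. Below, the count over all features in the same setting follows each count of members. At 2 h it was 1 with the authors' matrix values (gst1, of 1662), 1 among features above the brightest foreign sequence (gst17, of 1270) and 2 with the surrounding spots subtracted (of 915), from 0. At 8 h it was 5 with median centring in place of loess (gst13, gst16, gst39 and both dim gst41 features, of 3178), 1 with the matrix values (gst10, of 2143) and 1 with the surroundings subtracted (gst18, of 1589), from 0. At 12 h it was 1 (gst39) with the matrix values (of 1086), with slide weights (of 1855) and with the surroundings subtracted (of 956), from 0. In the mean over times it was 0 with log ratios scaled between slides (of 2355), 1 without the dye term (gst39, of 2066) and 2 with the surroundings subtracted (gst17 and gst39, of 2963), from 3. It was 0 (of 131) with no replicate block, which here means that the 2 channels of a slide were taken as unpaired samples. The test between times called 1 feature (gst41, of 306) with median centring, from 0. Of control levels, 0 were called above the brightest foreign sequence (of 2037) and 0 with no replicate block in the same sense (of 274), from 1. The first of these settings could not keep that call, because gst41 AI770339 lies below the brightest foreign sequence and was left out. With the replicate letter as a block in place of the dye term the counts remained 0 at each time and 3 in the mean.

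Leaving out 1 slide gave counts of 0 to 1 at 2 h (1 without 2 h slide d, 4 h slide b or 8 h slide b), 0 to 2 at 8 h (2 without 4 h slide a) and 1 to 5 in the mean (5 without 8 h slide b, and 1 without 1 h slide b, 2 h slides a or d, 4 h slide c, 8 h slide a, or 12 h slides a or c). For control levels it gave 0 to 3 (3 without 4 h slide a, 2 without 1 h slide a or 2 h slide d, and 0 without 1 h slides b or d, 4 h slides b, c or d, 8 h slides a, c or d, or 12 h slides b, c or d), and 0 for the other comparisons.

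gst41 AI738277 changed sign at 8 h with the matrix values (0.0297) and with the surroundings subtracted (0.0326). gst41 AI770339 did so with loess within print blocks, to 0.0467 at 4 h, 0.00289 at 8 h and 0.00238 in the mean. gst41 AI939790 at 4 h changed to 0.175 with loess within print blocks and to 0.0594 with the matrix values. With median centring AI738277 reached -1.75 at 8 h (adjusted p = 0.00279) and -0.61 in the mean (adjusted p = 0.00525), and with loess within print blocks it was -0.23 at 4 h and -0.11 at 8 h. Over the settings the lowest values of AI770339 were -1.29 at 8 h and -0.53 in the mean. Its smallest adjusted p was 0.00521 at 8 h and 0.00641 in the mean, and the mean passed in 1 setting. The lowest and highest counts over all features were 0 and 1662 at 2 h, 0 and 3178 at 8 h (1509 as reported), 29 and 1855 at 12 h (868), 131 and 3770 in the mean (2881), 0 and 306 between times (31), and 274 and 3668 for control levels (1999). The causes were not tested, and 3 or 4 slides per time limit the precision at single times.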

Other observations

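Some spots with special names on the slides refer to GSTs and were outside the gene table and the fit above. They were added to the fit in a setting chosen after the data had been seen, and 0 of 4 passed in the mean over times. In the fit without these spots, 14.4% of all features passed in the mean. At single times none of these spots passed either, and their smallest adjusted p was 0.106. The spot named BZ2: Bro, which by its name stands for Bronze2, had a mean log2(UV/control) of 0.13 ± 0.05 (n = 19, adjusted p = 0.113, higher on 13 slides) and stood at 0.29 ± 0.11 at 8 h and 0.22 ± 0.11 at 12 h. The spot PBSGSTII had 0.11 ± 0.04 in the mean (n = 19, adjusted p = 0.0920, higher on 14 slides) and was above 0 on every slide of 8 and 12 h, at 0.21 ± 0.09 and 0.24 ± 0.09. The spot GSTP: GS had 0.22 ± 0.10 (n = 18, adjusted p = 0.142) and was also above 0 on every measured slide of 8 and 12 h, at 0.50 ± 0.24 and 0.62 ± 0.20. The spot PBS-GSTI had -0.09 ± 0.20 (n = 19, adjusted p = 0.808), with slides of 4 h from -2.30 to 2.66. The files and labels used here do not describe the cDNA of these spots further.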
